A study of Homo sapiens with 7 samples.

Results

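The ERBB receptor genes EGFR, ERBB2, ERBB3 and ERBB4 were followed through H3K27ac HiChIP loop lists of 3 human cancer cell lines. H3K27ac HiChIP joins proximity ligation of chromatin to immunoprecipitation of histone H3 acetylated at lysine 27, so a loop is a pair of DNA segments, called anchors, whose ends were ligated and that carry this mark of active promoters and enhancers. The lines were Ishikawa (endometrial adenocarcinoma, 4 samples), T-47D (ductal carcinoma of the breast, 1 sample) and LNCaP (prostate cancer, 2 samples). Of the Ishikawa samples, 2 were exposed to the solvent DMSO for 1 h and 2 to 10 nM E2, the estrogen 17β-estradiol, for 1 h. The labels name no treatment for T-47D and LNCaP, and all 3 lines were grown in RPMI medium with fetal bovine serum and fixed with formaldehyde. The study's methods place cells in hormone-depleted medium with stripped serum for 5 days ahead of an estrogen induction, which the labels do not mention for the Ishikawa samples. Chromatin was cut with DpnII in Ishikawa and with MboI in the other lines. Sonication, sequencer, read length and sequencing depth also differed between Ishikawa and the others. By the study's methods, each Ishikawa sample was sequenced to more read pairs than those of T-47D and LNCaP. Wherever Ishikawa is compared, these steps cannot be told apart from the line. Samples of a line were merged by the authors, which leaves 1 loop list per line, no replicate error and no comparison of DMSO with E2.

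A loop was counted for a gene when one of its anchors overlapped a window of 500 bp centred on any start site that GENCODE gives the gene. By this rule 245 of 354783 loops belonged to the ERBB genes, namely 55 of 163530 Ishikawa loops, 76 of 42027 T-47D loops and 114 of 149226 LNCaP loops. The loops of the lists held 1040329, 351260 and 1805322 read pairs respectively, so counts are also given per 100000 loop read pairs of the same list. These sums count listed loops only and are not the sequencing depth, which per sample was greatest in Ishikawa. Read pairs of single loops, partners and anchors are given as listed, without this scaling, and do not rank the lists. Intervals are exact 95% intervals that cover counting error only, since the merged lists carry no other measure of spread.

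The ERBB receptors are single-pass receptor tyrosine kinases that bind growth factors of the EGF and neuregulin families, form dimers with each other and signal through RAS, PI3K and STAT pathways. EGFR binds EGF and related ligands. ERBB2 has no known ligand of its own and is the preferred dimer partner of the other receptors. ERBB3 binds neuregulins but has a weak kinase, and ERBB4 binds neuregulins with an active one. Gain or activation of these receptors drives many epithelial tumours, and endocrine-related tissues such as breast, endometrium and prostate use them alongside steroid hormone receptors.

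On hg19 (GRCh37, positions counted from 1), EGFR lies at chr7:55086710-55279321 on the plus strand and has 12 start sites in GENCODE. ERBB2 lies at chr17:37844167-37886679 on the plus strand with 21 start sites, of which the canonical one is at 37856317. ERBB3 lies at chr12:56470583-56497289 on the plus strand with 32 start sites and its canonical start at 56473949. ERBB4 lies at chr2:212240442-213403565 on the minus strand, covers 1163.1 kb, has 8 start sites and has its canonical start at 213403526. Canonical means the transcript that Ensembl marks as such.

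The DNA just before the start sites shows which promoters the loops touched. RefSeq windows of 250 bases before the start were taken from a GRCh38.p14 table, found by exact match on GRCh37, and cut to the longest stretch outside every GENCODE exon; for the canonical ERBB2 start the stretch was read from GRCh37. All are written 5′ to 3′ on the strand of the gene, with GGGCGG (the GC box read by SP-family factors) and TATAAA in capitals on either strand.
EGFR, first start, chr7:55086460-55086709, plus strand: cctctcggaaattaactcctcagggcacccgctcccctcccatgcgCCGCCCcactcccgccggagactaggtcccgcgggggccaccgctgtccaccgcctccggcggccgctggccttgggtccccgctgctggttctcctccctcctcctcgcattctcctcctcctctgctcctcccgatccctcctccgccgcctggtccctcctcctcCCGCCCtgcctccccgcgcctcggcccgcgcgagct
EGFR, start in intron 1, chr7:55177282-55177415, plus strand: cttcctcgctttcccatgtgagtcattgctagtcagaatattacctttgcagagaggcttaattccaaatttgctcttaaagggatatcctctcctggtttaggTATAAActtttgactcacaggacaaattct
ERBB2, canonical start, chr17:37856067-37856228, plus strand: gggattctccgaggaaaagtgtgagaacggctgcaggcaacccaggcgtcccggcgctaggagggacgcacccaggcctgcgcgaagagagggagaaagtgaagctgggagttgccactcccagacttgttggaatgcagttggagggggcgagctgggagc
ERBB4, canonical start, chr2:213403566-213403776, minus strand: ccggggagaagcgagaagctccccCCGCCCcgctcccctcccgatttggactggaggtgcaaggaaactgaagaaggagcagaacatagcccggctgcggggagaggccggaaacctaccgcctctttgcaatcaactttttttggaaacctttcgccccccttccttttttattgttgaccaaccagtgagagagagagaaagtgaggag

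These stretches differed in base composition. The full window of 250 bases before the first EGFR start was 73.6% G or C with 25 CG dinucleotides and 2 GGGCGG matches, against a median of 58.0% and 11.0 CG dinucleotides over 35116 such windows. The window before the EGFR start in intron 1 was 38.8% G or C, with 1 CG dinucleotide and 2 TATAAA matches, of which 1 lies in the stretch shown. The ERBB4 window held 57.2% G or C and 1 GGGCGG match. The window before the canonical ERBB2 start held 58.8% G or C and 1 CCAAT match, which lies in the part cut away as exon. Of all windows, 42.6% held GGGCGG, 10.7% held TATAAA, 32.0% held CCAAT and 0.0399% held the estrogen response element GGTCANNNTGACC, each counted on both strands and apart from any overlap with another motif. The RefSeq window before the upstream ERBB2 start, 65.6% G or C with 1 CCAAT match, lies wholly in exons and is not shown. None of the 5 windows held GGTCANNNTGACC. The EGFR first start lay in loop anchors of T-47D and LNCaP, the EGFR start in intron 1 in an anchor of LNCaP, the canonical ERBB2 start in anchors of all 3 lists and the canonical ERBB4 start in an anchor of T-47D.

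Anchor edges follow restriction sites, which is shown by the left edges of the anchor over the canonical ERBB2 start, with the GATC site that DpnII and MboI cut in capitals.
Ishikawa, chr17:37855035-37855064, plus strand: ataggtgcctttGATCccttcttgaccagt
T-47D, chr17:37855032-37855061, plus strand: ctgataggtgcctttGATCccttcttgacc
LNCaP, chr17:37854296-37854325, plus strand: gccccacaaaacctaGATCtgccccagtat
Ishikawa and T-47D ended this anchor at the same GATC site, and LNCaP at another site farther upstream. All 36 edges of the anchors over EGFR, ERBB2 and ERBB4 start sites lay within 5 bases of a GATC. Anchors had a median width of 5.10 kb in the Ishikawa list, 2.61 kb for T-47D and 3.23 kb for LNCaP.

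Promoter contacts of ERBB2, ERBB3 and ERBB4 were highest in T-47D per loop read pair, those of EGFR were lowest in Ishikawa, and ERBB4 had none listed in LNCaP. Since the genes differ in their number of start sites, levels are compared within a gene and not between genes. ERBB2 promoters were joined by 117 read pairs in 18 loops in Ishikawa, 392 in 30 loops in T-47D and 857 in 60 loops in LNCaP. Per 100000 loop read pairs this was 11.2 (9.30 to 13.5), 112 (101 to 123) and 47.5 (44.3 to 50.8). ERBB2 was thus highest in T-47D and lowest in Ishikawa, and none of the 3 intervals overlapped.

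ERBB3 promoters were joined by 276 read pairs in 30 loops in Ishikawa, 359 in 36 loops in T-47D and 752 in 35 loops in LNCaP. Per 100000 this was 26.5 (23.5 to 29.9), 102 (91.9 to 113) and 41.7 (38.7 to 44.7). ERBB3 kept the order of ERBB2, with T-47D highest and Ishikawa lowest, and its intervals did not overlap either. With only the 5′ end of the gene record as start site, ERBB3 had 0 read pairs in all 3 lists, so its values rest on start sites farther inside.

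EGFR promoters were joined by 26 read pairs in 6 loops in Ishikawa, 28 in 6 loops in T-47D and 169 in 19 loops in LNCaP. Per 100000 this was 2.50 (1.63 to 3.66), 7.97 (5.30 to 11.5) and 9.36 (8.0 to 10.9). EGFR was lowest in Ishikawa, and the intervals of T-47D and LNCaP overlapped.

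ERBB4 promoters were joined by 7 read pairs in 1 loop in Ishikawa and 18 in 4 loops in T-47D, which is 0.673 (0.271 to 1.39) and 5.12 (3.04 to 8.10) per 100000. LNCaP had 0 read pairs, for which a floor of 3 read pairs in the list, 0.166 per 100000, was used. Loops below 3 read pairs were removed by the authors, so this 0 is the absence of a listed loop, and the floor covers counting error only and not read pairs in several loops under that minimum.

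**Figure D1:**
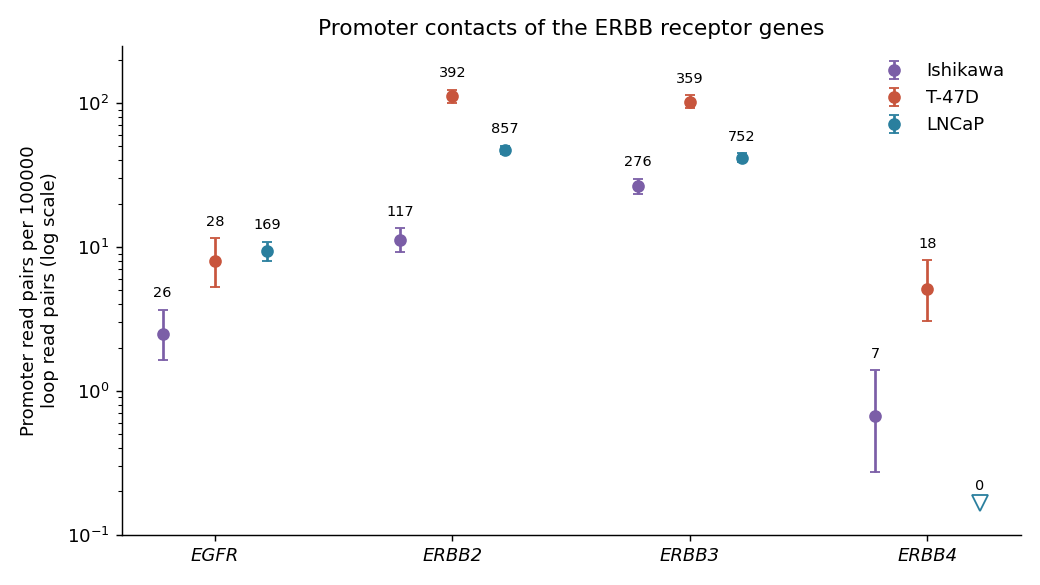
Promoter read pairs per 100000 loop read pairs (log axis) of the 4 ERBB genes in the Ishikawa, T-47D and LNCaP loop lists. Points are the values, bars exact 95% Poisson intervals and printed numbers the read pairs; the open triangle marks the floor of 3 read pairs for ERBB4 in LNCaP, where no loop was listed. T-47D lies highest for ERBB2, ERBB3 and ERBB4, with 112, 102 and 5.12, and overlaps LNCaP for EGFR.

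Each list holds 1 value per gene, so no test of a difference between lines was possible, and a fixed fold of 4 served as the call. A gene was compared when it had 10 or more promoter read pairs in either list. T-47D exceeded Ishikawa by 9.92-fold (8.05 to 12.3) for ERBB2 and 7.62-fold (3.04 to 21.6) for ERBB4, and these 2 of 4 genes passed 4-fold, as did 42.2% of the 11728 genes compared. EGFR was 3.19-fold (1.80 to 5.66) and ERBB3 3.85-fold (3.28 to 4.52) higher in T-47D than in Ishikawa, below the fold used. This holds over all start sites, and at the canonical start the ratios were at least 27.6 for EGFR and 15.6 for ERBB3. The median gene was 2.10-fold higher in T-47D, and the shares of members and of all genes past the fold lie close to each other.

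LNCaP exceeded Ishikawa by 4.22-fold (3.48 to 5.17) for ERBB2, 3.75-fold (2.47 to 5.90) for EGFR and 1.57-fold (1.37 to 1.81) for ERBB3. The median gene was 2.45-fold higher, and ERBB2, 1 of 3 genes compared, passed 4-fold, as did 40.6% of 13418 genes. ERBB4 was not compared here, having 0 and 7 read pairs. ERBB3 thus lay below the median ratio of all genes and EGFR and ERBB2 above it. For ERBB3 this rests on an Ishikawa anchor at its 3′ end that also holds promoters of other genes, touched by 249 of its 276 read pairs. At the canonical start, described below, its ratio was 10.1.

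T-47D exceeded LNCaP by 2.35-fold (2.08 to 2.65) for ERBB2 and 2.45-fold (2.16 to 2.79) for ERBB3, where the median gene was 1.22-fold higher. ERBB4 was at least 30.8-fold higher in T-47D, with the 0 of LNCaP set to the floor of 3 read pairs in the list, and was the 1 of 4 genes past 4-fold, against 19.1% of 11350 genes. This bound rests on the number of loop read pairs of LNCaP: it was 4.95 on the log2 scale and fell to 2.12 when the lists were thinned to the read pairs of T-47D. For EGFR the ratio of T-47D to LNCaP was 0.852 (0.549 to 1.28), so no order of these lines was resolved. No member passed 4-fold in the opposite direction, where 13.5% of genes were higher in LNCaP than in T-47D, 15.0% in Ishikawa than in T-47D and 25.2% in Ishikawa than in LNCaP.

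All 4 genes had a linked distal anchor in Ishikawa and T-47D and 3 of 4 in LNCaP. A distal anchor is one that holds no promoter window of a protein-coding gene. Over all 20149 genes this share was 52.5% in Ishikawa against 34.7% in T-47D and 52.4% in LNCaP. A promoter loop of any kind was present for 57.3%, 49.2% and 58.1% of genes. ERBB2 had 5, 8 and 15 linked distal anchors in Ishikawa, T-47D and LNCaP, ERBB3 had 8, 1 and 9, EGFR had 4, 6 and 13 and ERBB4 had 1, 4 and 0.

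Set against all genes of the list, ERBB2 had more promoter read pairs than 95.5% of genes in Ishikawa against 99.6% in T-47D and 98.5% in LNCaP. For ERBB3 these percentiles were 99%, 99.5% and 98.3%. EGFR stood above 74.5%, 78.5% and 85.7% of genes and ERBB4 above 53.6%, 71.4% and 0%. These ranks are not corrected for the number of start sites of a gene.

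The canonical start site changed the picture for Ishikawa. In that list 2 of 4 members had it in a loop anchor, against 44.1% of all genes, in T-47D 4 of 4 against 45.4%, and in LNCaP 3 of 4 against 53.8%. At the canonical start ERBB3 had 43 read pairs in Ishikawa against 226 in T-47D and 752 in LNCaP, so T-47D exceeded Ishikawa by 15.6-fold (11.2 to 22.1) and LNCaP exceeded it by 10.1-fold (7.41 to 14). The LNCaP anchor was 10.88 kb wide over 18 ERBB3 start sites, against 3.388 kb in Ishikawa and 3.158 kb in T-47D over 12 each. Its 752 read pairs are thus the same as over all start sites, and the LNCaP ratio compares anchors of unlike width. ERBB2 had 74, 282 and 634 read pairs there, with a ratio to Ishikawa of 11.3 (8.71 to 14.8) for T-47D and of 4.94 (3.88 to 6.37) for LNCaP. EGFR had 0, 28 and 110 read pairs, at least 27.6-fold higher in T-47D and at least 21.1-fold higher in LNCaP than in Ishikawa. ERBB4 had 0, 18 and 0, at least 17.8-fold higher in T-47D than in Ishikawa. The ratio of T-47D to LNCaP for EGFR was 1.31 (0.832 to 2.0) at this start, on the other side of 1 from its value over all start sites.

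EGFR contacts ran mainly along its own gene. In T-47D the first EGFR start lay in an anchor at chr7:55085666-55088076, and in LNCaP in one at chr7:55084948-55088692. Ishikawa also listed an anchor there, chr7:55085669-55090663, but only as 3 read pairs joining it to itself, with no loop to another anchor. The 6 Ishikawa loops started instead from 3 anchors inside the gene, 146.76, 171.01 and 183.78 kb after the first start, each over 1 start site of a shorter transcript near exons 14 to 15, 21 and 24 to 28 of 28.

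The strongest EGFR loop of LNCaP held 29 read pairs and joined the first start to chr7:55244189-55255083, an anchor 162.93 kb downstream that spans introns 19 to 20 and exon 20. The same anchor was joined by 17 read pairs to the EGFR start in intron 1, at chr7:55175327-55180219. T-47D joined its first start to chr7:55244335-55248681 in intron 19, inside the LNCaP anchor, by 4 read pairs. Ishikawa had an anchor, chr7:55239009-55244190, that abuts the LNCaP anchor with an overlap of 2 bp and was joined by 5 read pairs to the internal start near exon 21.

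In T-47D the strongest EGFR loop held 10 read pairs and led 8.761 kb downstream into intron 1, to chr7:55094796-55096146. An intron 1 anchor near 25 kb downstream was linked in both T-47D (chr7:55110801-55112542, 4 read pairs) and LNCaP (chr7:55111115-55118023, 15 read pairs in all). Distal anchors within EGFR took 64.3% of its promoter read pairs in T-47D, 67.5% in LNCaP and 38.5% in Ishikawa. No other promoter was joined to EGFR in Ishikawa or T-47D, and in LNCaP only that of SEC61G, a subunit of the protein translocation channel of the endoplasmic reticulum, by 3 read pairs.

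EGFR loops that touched no start site also differed between lists. The strongest loop inside the gene in LNCaP, 32 read pairs, joined intron 1 at chr7:55139250-55151634 to the anchor of exon 20. In Ishikawa the strongest, 15 read pairs, joined exons 2 to 4 (chr7:55210116-55217778) to exons 17 to 19. All loops with both anchors in EGFR held 63 read pairs in Ishikawa against 31 in T-47D and 234 in LNCaP. Per 100000 this was 6.056, 8.825 and 12.96. Of these read pairs, 68.3%, 41.9% and 50% lay in loops without a start site.

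**Figure D2:**
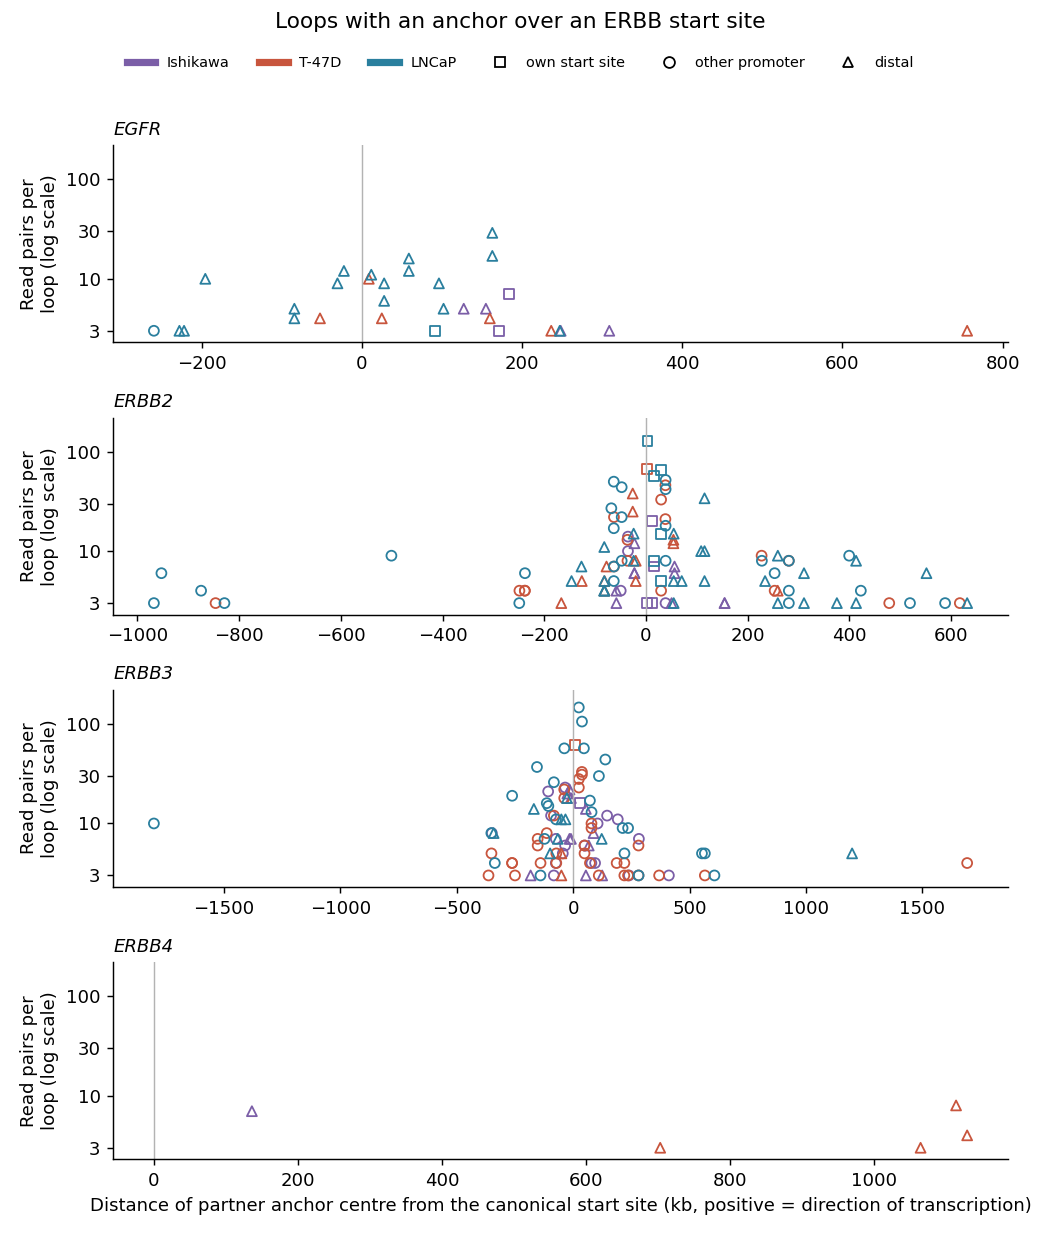
Read pairs of each loop (log axis) against the distance of its partner anchor from the canonical start site in kb, for the 4 ERBB genes. Colours are the loop lists, squares partners over another start site of the same gene, circles partners over the promoter of another gene and triangles distal partners. ERBB2 and ERBB3 loops crowd around the start, and 3 of the 4 T-47D loops of ERBB4 lie more than 1000 kb away.

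The upstream and the canonical start sites of ERBB2 fell into separate anchors in every list. The upstream ones shared an anchor with the promoter of PGAP3, a gene for remodelling of glycosylphosphatidylinositol anchors that runs the other way, at chr17:37843040-37845789 in Ishikawa, chr17:37842573-37845787 in T-47D and chr17:37842573-37846401 in LNCaP. The anchor over the canonical start held no promoter of another gene. The loop joining these 2 ERBB2 anchors was the strongest ERBB2 loop of T-47D, with 67 read pairs, and of LNCaP, with 129. In Ishikawa it held 3 read pairs, and the strongest loop, with 20, joined the canonical start to chr17:37865596-37870133 over internal start sites at exons 4 to 9 of 27. Leaving out anchors that also hold a promoter of another gene gave 111, 282 and 664 read pairs in Ishikawa, T-47D and LNCaP.

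ERBB2 was joined to the promoters of its neighbours. STARD3, a late endosomal cholesterol-binding protein gene, was joined to ERBB2 by 28 read pairs in Ishikawa against 29 in T-47D and 153 in LNCaP. GRB7, whose protein is an adaptor that binds activated ERBB2, was joined by 3, 67 and 120. These counts are not scaled, and the LNCaP list held 1805322 loop read pairs against 351260 in T-47D, so they do not rank the lists. STARD3 and GRB7 were the 2 partners found in all 3 lists, of 4, 13 and 20 partner genes. TCAP, a titin-binding sarcomere gene, was joined by 24 read pairs in Ishikawa against 21 in T-47D and 0 in LNCaP. The 24 Ishikawa read pairs ran to 1 anchor over PNMT, STARD3 and TCAP, so they count for each of these genes.

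MIEN1, which begins beside the 3′ end of ERBB2, was joined by 37 read pairs in T-47D. In LNCaP its promoter lay in the same anchor as an ERBB2 start site, chr17:37883504-37887674, which was joined by 66 read pairs to the canonical ERBB2 start. In LNCaP the promoter of PPP1R1B, a protein phosphatase inhibitor gene, added 27 read pairs. IKZF3, a lymphoid transcription factor gene farther downstream, had no promoter joined to ERBB2 in any list.

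**Figure D3:**
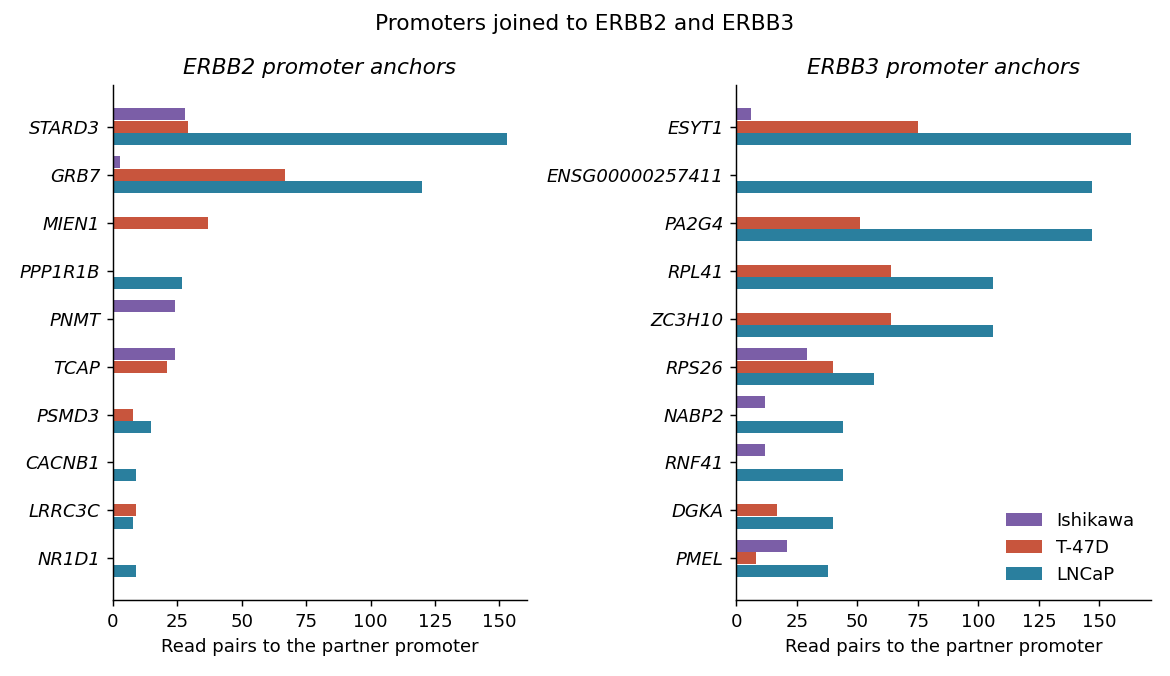
Read pairs joining ERBB2 (left) and ERBB3 (right) promoter anchors to promoters of other genes, for the 10 partners with the most read pairs in any list, coloured by loop list. GRB7 reaches 67 and 120 in T-47D and LNCaP and 3 in Ishikawa. Read pairs are not scaled to the lists, so the bars do not rank the lists. A partner in the same anchor as the ERBB gene has no bar, as for PA2G4 and RPL41 beside ERBB3 in Ishikawa. Partners that lie in 1 anchor, as RPL41 and ZC3H10, count the same read pairs.

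Distal anchors of ERBB2 recurred in all lists at 2 places. One lay in PGAP3 about 24 kb upstream of the canonical start, at chr17:37829598-37837826 in Ishikawa with 24 read pairs in all, chr17:37827071-37833728 in T-47D with 63 and chr17:37830717-37833728 in LNCaP with 23. The other place lay about 54 kb downstream, with 13 read pairs in Ishikawa against 25 in T-47D and 23 in LNCaP. It was outside genes in T-47D and LNCaP, and the wider Ishikawa anchor reached into IKZF3. LNCaP had a further distal partner at chr17:37967269-37976025 in IKZF3, 115.33 kb downstream, with 34 read pairs from the canonical start.

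ERBB3 was embedded in a dense stretch of promoters. Other promoters took 54.0% of its read pairs in Ishikawa against 80.8% in T-47D and 88.6% in LNCaP. In LNCaP the strongest loop, 147 read pairs, joined the canonical ERBB3 anchor chr12:56471317-56482196 to the promoter of PA2G4 at chr12:56495220-56500955. PA2G4 encodes EBP1, a protein known for binding ERBB3. The next held 106 read pairs and ended over RPL41, ZC3H10 and ESYT1, genes for a ribosomal protein, a zinc finger protein and a membrane-tethering protein.

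In T-47D the ERBB3 starts lay in separate anchors, and the strongest loop, 61 read pairs, joined the canonical one, chr12:56471777-56474934, to chr12:56479646-56481405 at exons 4 to 5. From these anchors 51 read pairs ran to PA2G4, 75 to ESYT1 and 64 each to RPL41 and ZC3H10. The 64 are the same read pairs, which ran to 1 anchor over RPL41, ZC3H10 and ESYT1 and are also among the 75. RPS26, a ribosomal protein gene upstream of ERBB3, was joined by 29 read pairs in Ishikawa against 40 in T-47D and 57 in LNCaP, not scaled to the lists. Of the Ishikawa read pairs, 23 came from an anchor at the 3′ end of ERBB3 that also holds promoters of other genes.

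In Ishikawa, 249 of the 276 ERBB3 read pairs touched a single anchor of 21.595 kb, chr12:56492655-56514249, which covers 2 start sites at the 3′ end of ERBB3 together with the promoters of PA2G4, RPL41, ESYT1, ZC3H10 and ENSG00000257411. The anchor over the canonical start, chr12:56471780-56475167, had 43 read pairs in 6 loops, and 16 of these ran to the wide anchor. Leaving out anchors with a promoter of another gene gave 43 read pairs in Ishikawa and did not change the 359 of T-47D and the 752 of LNCaP.

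RNF41, which encodes the ubiquitin ligase NRDP1 that directs ERBB3 to degradation, lies farther downstream and shares its partner anchors with NABP2. It was joined to ERBB3 by 12 read pairs in Ishikawa, all from the wide anchor at the 3′ end, and by 44 in LNCaP. In T-47D, RNF41 had no promoter loop. Of 23, 31 and 32 partner genes of ERBB3 in Ishikawa, T-47D and LNCaP, 14 were found in all 3 lists, among them the cell cycle kinase gene CDK2 and the melanosome gene PMEL. In Ishikawa only RPS26, IKZF4 and SUOX of these partner genes were joined to the anchor over the canonical start. The other Ishikawa partners, CDK2 and PMEL included, came through the wide anchor alone. T-47D and LNCaP shared 22 partner genes, which is 71.0% of those of T-47D and 68.8% of those of LNCaP.

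**Figure D4:**
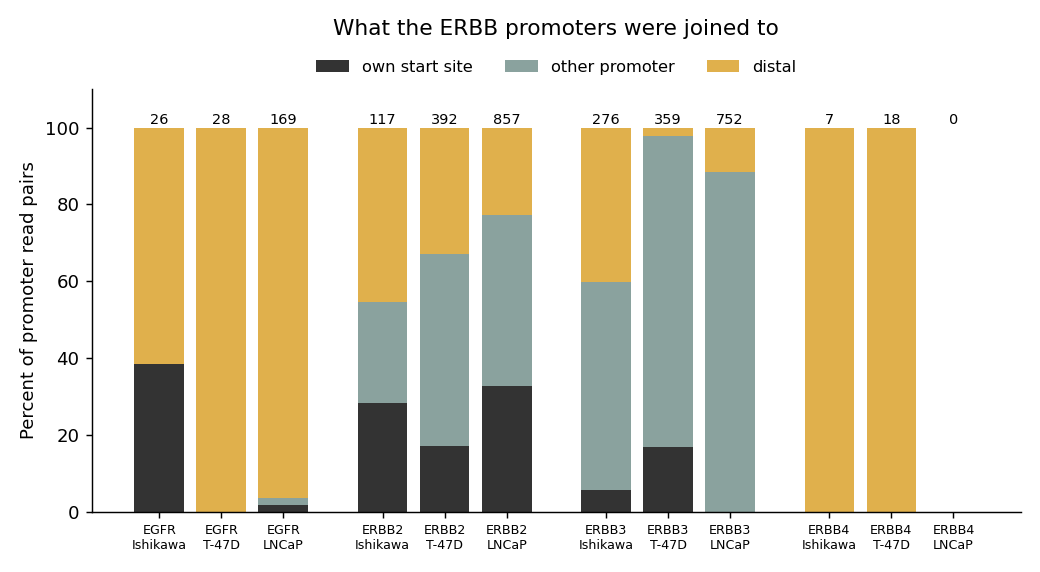
Percent of the promoter read pairs of each ERBB gene, in each loop list, that joined another start site of the same gene, a promoter of another gene or a distal anchor; numbers above the bars are read pairs. ERBB3 in LNCaP reaches 88.6% at other promoters, and EGFR and ERBB4 in T-47D lie wholly at distal anchors.

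ERBB4 promoter loops in T-47D spanned most of this long gene. In T-47D its canonical start lay in an anchor at chr2:213401165-213404679 joined to 4 anchors inside the gene. They held 8 read pairs at chr2:212285695-212292583 (exons 23 to 24 of 28), 4 at chr2:212271756-212275696 (intron 25), 3 at chr2:212336643-212340181 (intron 20) and 3 at chr2:212699272-212701033 (intron 3). These partners lay 1114.4, 1129.8, 1065.1 and 703.37 kb from the start. Loops over 1 Mb long made up 3 of these 4 and 2.13% of all T-47D loops.

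The same ERBB4 anchors were joined to each other by more read pairs than to the start, but over shorter distances. The strongest, 38 read pairs, joined intron 25 to the anchor of exons 23 to 24, and 28 read pairs joined that anchor to the one in intron 20. These 2 loops spanned 15.4 and 49.3 kb, against 702.77 to 1129.2 kb for the loops to the start. The part of distance in these counts was not tested. In all, 15 loops with 159 read pairs lay inside ERBB4 in T-47D, 88.7% of them in loops without a start site. Ishikawa had 1 loop inside the gene, 7 read pairs between chr2:213283604-213293941 over an internal start and chr2:213262799-213271945, both in intron 1. LNCaP had 3 loops with 3 read pairs each, from chr2:212242288-212245004 at the last exon. Per 100000 this was 45.3 in T-47D but 0.673 in Ishikawa and 0.499 in LNCaP. The nearest anchor of any kind to the canonical start was 64.587 kb away in Ishikawa and 317.11 kb away in LNCaP.

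**Figure D5:**
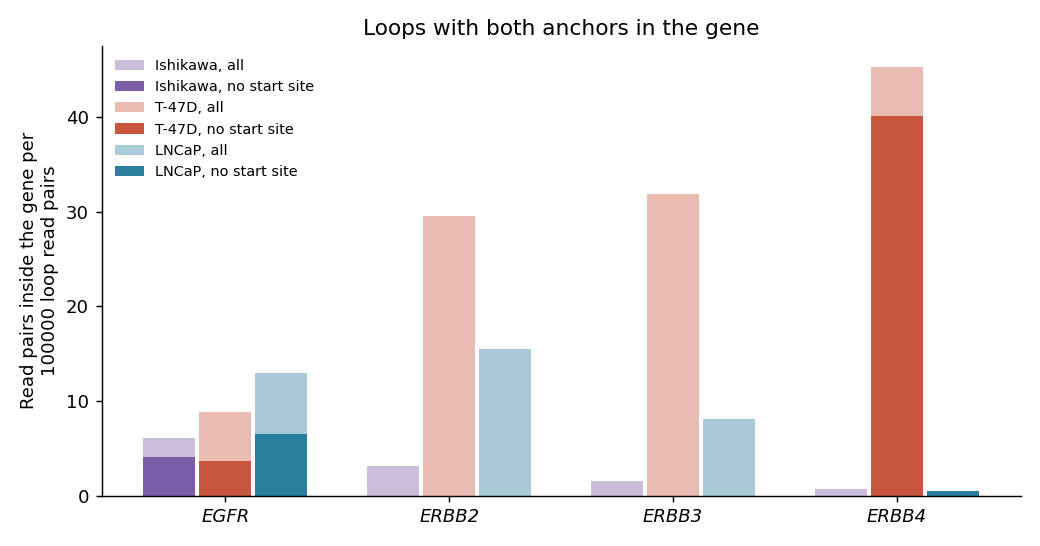
Read pairs of loops with both anchors in the gene, per 100000 loop read pairs, for each ERBB gene and loop list. The full bar counts all such loops and its dark part those that touch no start site of the gene; bars carry no error. ERBB4 in T-47D reaches 45.3, nearly all of it away from start sites.

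Linked distal anchors of the ERBB genes were set against all anchors of the other lists, where sharing means an overlap of 1 bp or more. This includes neighbouring segments that only abut, as the LNCaP and Ishikawa anchors in EGFR that overlap by 2 bp. The share over all genes was counted in the same way. Of the 18 in Ishikawa, 7 were shared with LNCaP (38.9%, 17.3% to 64.3%), beside 17.5% of all linked distal anchors of that list, and 2 with T-47D (11.1%, 1.38% to 34.7%), beside 7.16%. Of the 19 in T-47D, 11 were shared with LNCaP (57.9%, 33.5% to 79.8%), beside 42.8%, and 6 with Ishikawa (31.6%, 12.6% to 56.6%), beside 40.7%. Of the 37 in LNCaP, 23 were shared with Ishikawa (62.2%, 44.8% to 77.5%), beside 36.2%, and 11 with T-47D (29.7%, 15.9% to 47%), beside 13.9%. The share over all genes lay within the interval for the anchors of Ishikawa and T-47D and below it for those of LNCaP. Anchors near the same gene are not independent, and with an overlap of 50% of both anchors required the share of LNCaP anchors at Ishikawa anchors was 10.8%. The share over all genes is given only for an overlap of 1 bp or more, so this 10.8% cannot be set beside it. The lists held 92121, 19386 and 43549 anchors in the order Ishikawa, T-47D and LNCaP, and the part of their number and width in these shares was not tested.

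Loops of all kinds around the genes also differed between the lists. In a window of 1 Mb centred on the canonical start, loops held 102 read pairs per 100000 around ERBB2 in Ishikawa against 360 in T-47D and 99.7 in LNCaP, where the median gene had 37.0, 30.5 and 32.0. Around ERBB3 these were 390, 488 and 270, above 99.5%, 97.0% and 97.3% of genes. Around EGFR they were 45.2, 23.1 and 47.4, and around ERBB4 5.48, 5.98 and 1.5. ERBB2 promoter loops made up 11.0% of the read pairs of its window in Ishikawa against 30.5% in T-47D and 45.4% in LNCaP, and ERBB3 promoter loops 6.81%, 20.5% and 14.9%. The part of the surroundings in the differences between lists was not tested.

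The Ishikawa list consists of 4 separately sorted stretches of rows that no label ties to a sample or treatment. ERBB2 read pairs in stretches 1 to 4 were 15, 10, 56 and 36, those of ERBB3 were 60, 23, 117 and 76, those of EGFR 8, 0, 11 and 7, and those of ERBB4 4, 0, 0 and 3. Stretch 3 was highest for ERBB2, ERBB3 and EGFR, with 23.4, 48.9 and 4.60 read pairs per 100000 of that stretch. Without stretch 3, all 4 members were past 4-fold in T-47D over Ishikawa, and without stretch 4 none was in LNCaP over Ishikawa. The share of all genes past 4-fold without a stretch is not given here.

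The genes whose promoter read pairs over the 3 lists lay nearest to each receptor were named by the distance of log2(read pairs per 100000 + 1). For EGFR they were MGLL, S100PBP and PPP6R3, at distances of 0.046 to 0.18. RGL2, RHOF and UPK2 lay nearest to ERBB2 at 0.49 to 0.58, and NIBAN2, BCL2L1 and KCTD2 to ERBB3 at 0.32 to 0.74. DPY19L1, ENSG00000256029 and RASAL1 lay nearest to ERBB4 at 0.069 to 0.16. Within a distance of 0.5, EGFR had 65 genes, ERBB4 had 43, ERBB3 had 4 and ERBB2 had 1, so the levels of ERBB2 and ERBB3 had few near matches.

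Genes that act with the receptors were described by lists taken from textbook roles. Of 11 genes for EGF-family ligands, 7 had a promoter loop in Ishikawa against 4 in T-47D and 3 in LNCaP, beside 57.3%, 49.2% and 58.1% of all genes. TGFA, a ligand of EGFR, had 123 read pairs in Ishikawa against 26 in T-47D and 0 in LNCaP, and HBEGF, a ligand of EGFR and ERBB4, had 104, 6 and 34. NRG1, the neuregulin that binds ERBB3 and ERBB4, had 23, 0 and 0. Past 4-fold in Ishikawa over LNCaP were 5 of the 6 ligand genes compared, TGFA, NRG1, NRG4, EREG and HBEGF, where 25.2% of all genes were. The other way, 1 of 6 (EGF) was higher in LNCaP, beside 40.6%. Of 5 compared between Ishikawa and T-47D, 1 (HBEGF) was higher in Ishikawa and 0 in T-47D, beside 15.0% and 42.2%. Of 3 compared between T-47D and LNCaP, 1 (TGFA) was higher in T-47D and 0 in LNCaP, beside 19.1% and 13.5%. EGF itself had 3, 6 and 107 read pairs, the most in LNCaP.

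Of 29 adaptors and signal transducers, 26 had a promoter loop in Ishikawa against 24 in T-47D and 27 in LNCaP, beside 57.3%, 49.2% and 58.1% of all genes. SHC1, an adaptor of activated ERBB receptors, had 43, 212 and 955 read pairs, and GRB7 had 3, 213 and 228. Per 100000 this was 4.13, 60.4 and 52.9 for SHC1 and 0.288, 60.6 and 12.6 for GRB7, so both were highest in T-47D. Past 4-fold were 9 of 27 genes in T-47D over Ishikawa and 9 of 29 in LNCaP over Ishikawa, and 4 of 27 and 5 of 29 in the opposite directions, beside 42.2%, 40.6%, 15.0% and 25.2% of all genes. Between T-47D and LNCaP, 5 of 26 were higher in T-47D and 3 of 26 in LNCaP, beside 19.1% and 13.5%.

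Of 16 negative regulators, 12, 12 and 14 had a promoter loop in Ishikawa, T-47D and LNCaP, beside 57.3%, 49.2% and 58.1% of all genes. LRIG1, which lowers the level of ERBB receptors, had 0, 70 and 1454 read pairs, and ERRFI1, an inhibitor of the EGFR kinase, had 24, 32 and 991. Both were highest in LNCaP on the scale per 100000 as well, with 80.5 and 54.9. Past 4-fold were 4 of 12 genes in T-47D over Ishikawa and 5 of 12 in LNCaP over Ishikawa, with 2 of 12 each the other way, beside 42.2%, 40.6%, 15.0% and 25.2% of all genes. Between T-47D and LNCaP, 3 of 12 were higher in T-47D and 3 of 12 in LNCaP, beside 19.1% and 13.5%. Of 8 sheddases, chaperones and scaffolds, 6, 6 and 7 had a promoter loop, beside the same 57.3%, 49.2% and 58.1% of all genes. Past 4-fold were 5 of 7 compared in T-47D over Ishikawa and 6 of 8 in LNCaP over Ishikawa, beside 42.2% and 40.6% of all genes. The other way, 2 of 7 (RHBDF2 and ADAM10) were higher in Ishikawa than in T-47D and 1 of 8 (RHBDF2) higher in Ishikawa than in LNCaP, beside 15.0% and 25.2%. Of the 7 compared between T-47D and LNCaP, 1 was higher in T-47D and 2 in LNCaP, beside 19.1% and 13.5%. HSP90AB1, whose protein stabilises ERBB2, had 9, 131 and 359 read pairs, which is 0.865, 37.3 and 19.9 per 100000.

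The labels of the lines were checked on promoter read pairs of marker genes. PAX8 and SOX17 had 162 and 27 in Ishikawa and 0 in the other lists, GATA3, PGR and TRPS1 had 517 to 2557 in T-47D and at most 7 elsewhere, and KLK3 and HOXB13 had 2936 and 3243 in LNCaP and at most 6 elsewhere. KRT8, an epithelial keratin gene, had 656, 307 and 512 in Ishikawa, T-47D and LNCaP, which is 63.1, 87.4 and 28.4 per 100000. KRT18 had 266, 0 and 253 read pairs and EPCAM 3, 54 and 26. Of 2 markers measured for other cell types, the leukocyte gene PTPRC had 3, 0 and 0, and the fibroblast gene COL1A1 had 9, 58 and 5, while the endothelial gene PECAM1 was not measured here. Their part in the values of the ERBB genes was not tested.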

How the data were processed

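H3K27ac HiChIP was measured in 4 Ishikawa, 1 T-47D and 2 LNCaP samples. The authors aligned reads to hg19 with HiC-Pro, called loops with hichipper and kept loops with 3 or more reads and a false discovery rate under 0.05; tool versions are not given in the sources used here. Each loop was deposited with its count of read pairs, with no scaling for depth.

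Loops joined 2 different anchors of the same chromosome, and the counts of repeated Ishikawa rows were summed. Start sites came from GENCODE 44 mapped to GRCh37, and 20149 protein-coding symbols were counted. Ratios set a list under 3 read pairs to 3. Named were the members, their anchors and strongest loops, partner promoters, the 3 nearest genes by level, and listed pathway genes and markers. Counting was tested on simulated data with Python 3.11.15, pandas 2.3.3 and SciPy 1.17.1. The members and lists were chosen with earlier results of these data known. Alternatives were stricter read-pair minimums, thinning to the list with the fewest loop read pairs, the strongest loops only, other promoter definitions, a span limit and stricter overlap. Canonical starts, anchors without other promoters and leaving out Ishikawa stretches were added after seeing the data. Some marker genes are not reported here.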

Additional observations from a re-analysis of the deposited data

Results flagged for a closer look

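Read pairs that joined a promoter anchor to itself lie outside the loops compared above. They exceeded the floor of 3 read pairs in the Ishikawa and T-47D lists for the following members, and no control sample exists for them. In T-47D they were 14 for EGFR, 135 for ERBB2, 140 for ERBB3 and 15 for ERBB4, which is 33.3%, 25.6%, 28.1% and 45.5% of the self and loop read pairs of these genes. In Ishikawa they were 12 for ERBB2, 114 for ERBB3 and 6 for ERBB4, or 9.30%, 29.2% and 46.2%. Over the whole lists the share was 46.8% in T-47D and 31.2% in Ishikawa. The 114 of ERBB3 in Ishikawa all lay in the wide anchor that also holds PA2G4 and RPL41. LNCaP lists no such pairs for any gene.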

How the results depend on the processing

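Of the 130 values of the counts and shares that answer a comparison under an alternative, 107 stayed within 1.5 times the reported count or within its interval and 23 did not; of 381 single-gene values, 231 stayed and 150 moved. The values that stayed include counts of 0 that remained 0, and T-47D values that thinning to its own read pairs cannot change. No called value changed direction. The cause of the changes was not tested except where fewer loops or start sites entered by construction. For T-47D over LNCaP, the 1 member past 4-fold became 0 with loops of 5 or more read pairs, with 10 or more and with spans of 20 kb to 1 Mb. For T-47D over Ishikawa, 2 became 1 with 5 or more read pairs, and 4 at the canonical start or without stretch 3. It became 3, within 1.5 times, with the strongest loops, 1 start site per gene or Ishikawa loops in 2 or more rows. With 10 or more read pairs, thinning or spans of 20 kb to 1 Mb the count stayed 2. The members then passing were ERBB2 and EGFR, no longer ERBB2 and ERBB4. After thinning the log2 ratio was 2.44 for EGFR and 1.94 for ERBB4. For LNCaP over Ishikawa, 1 became 2 with 5 or more read pairs, 10 or more, expected counts after thinning to the read pairs of T-47D, the strongest loops up to the number in T-47D, 1 start site per gene, Ishikawa loops in 2 or more rows, or without stretch 3. It became 3 at the canonical start and 0 without stretch 4. Members with a linked distal anchor fell from 4 to 2 in Ishikawa with 10 or more read pairs, the strongest loops or the canonical start, to 1 with 1 start site per gene, and to 2 in T-47D with 10 or more read pairs. No share of all genes past 4-fold or with a linked distal anchor is given for these alternatives. Whether all genes shifted in the same way was not tested. With an overlap of 50% of both anchors, sharing was 5.56% for Ishikawa in LNCaP, 10.5% for T-47D in Ishikawa and 10.8% for LNCaP in Ishikawa. The share over all linked distal anchors at this overlap is not given, so these values cannot be called low or high.

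No paired analysis was possible because each line has 1 loop list in which its samples are merged. Thinning again left out loops under 3 read pairs, so the thinned lists held 224529.5, 351260 and 254613.5 read pairs in Ishikawa, T-47D and LNCaP, and the lists of strongest loops held 39052, 42027 and 40829 loops. The log2 ratio of EGFR in T-47D over LNCaP was -0.23 as reported, -1.42 with 5 or more read pairs and 0.39 at the canonical start. EGFR and ERBB4 rest on 28 read pairs or fewer in Ishikawa and T-47D, and at this depth a promoter contact under 3 read pairs could not be listed.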
